A study of Mus musculus with 5 samples.

Results

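The genes described here encode molecular chaperones and co-chaperones, the proteins that fold newly made proteins and refold damaged ones. They were taken from the table of sorted intestinal cells by symbol: names that start with Hspa, Hspb, Hspd, Hspe, Hsph, Hsp90 or Dnaj, names that start with Bag or Cct and go on with a digit, and St13, Stip1, Ahsa1, Hsf1 and Hsf2, without Hspbap1 and pseudogenes marked -ps. The rule took 92 of the 22042 genes, which carry 91 symbols because Hspa14 is listed under 2 identifiers. By textbook location, 62 of them act in the cytosol and nucleus, 9 in mitochondria and 14 in the endoplasmic reticulum (ER), 2 are heat shock transcription factors and 5 were given no compartment.

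RNA was sequenced from sorted epithelial cells of the small intestine of C57Bl/6J mice that carried Cck-Cre and the R26-LSL-tdTomato reporter, aged 6 to 8 weeks. Cre under the control of Cck makes cells red once they or their precursors have expressed this hormone gene, so the tdTomato+ cells are called CCK+ and the tdTomato- cells of the same gut CCK-. 3 mice were fasted overnight, and 3 others were fasted and then given the liquid diet Ensure, for a time that is not given in the sources used here. Each of the 6 mice gave 1 CCK+ and 1 CCK- library, which makes 4 groups of 3 libraries, and all cells were freed with EDTA and warm trypsin before sorting.

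Chaperones of the Hsp70 family hold exposed stretches of unfolded protein in cycles of ATP use. J proteins (Hsp40) bring them their clients, Hsp110 proteins and Bag proteins release the nucleotide, and Stip1 hands clients on to Hsp90, which finishes many kinases and hormone receptors. Mitochondria have their own Hsp70 and an Hsp60-Hsp10 folding chamber, and the ER has BiP (Hspa5), Grp94 (Hsp90b1) and their J proteins. The factor Hsf1 drives the cytosolic and mitochondrial genes when unfolded proteins build up, whereas the unfolded protein response drives the ER genes. In the gut, enteroendocrine cells make large amounts of secreted hormone, and enterocytes make the digestive enzymes of the brush border.

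The hormone gene checks the sort. Cck stood at 20166, 15183 and 25000.5 normalized counts in the fasted CCK+ libraries and 32592, 26039 and 14837 in the refed, against 43.2, 65.3 and 86.0 in the fasted CCK- libraries and 50.1, 29.9973 and 27.6 in the refed. All CCK+ libraries were far above all CCK- libraries, as the labels say. Cck alone does not show how pure the sorts were. The enteroendocrine markers listed further on made up 1.15 to 5.00% of the counts in CCK+ libraries and 0.0158 to 0.0333% in CCK- libraries. The enterocyte markers made up 3.60 to 6.01% in CCK+ libraries and 6.07 to 8.37% in CCK- libraries. Enterocyte marker RNA was thus plentiful in both, and calls shared by both cannot be read as those of 2 separate cell types. The values are the authors' normalized estimated counts, and the libraries hold 16656 to 18855 genes above 0. The 3 values of a group are always given in the order of replicates 1 to 3. Replicates 1, 2 and 3 of the fasted groups are the same 3 mice in both populations, and so are those of the refed groups.

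After refeeding, 25 of the 92 chaperone genes were called higher in CCK+ cells and 14 in CCK- cells, by limma on log2(normalized count + 1) with Benjamini-Hochberg adjustment over all 22042 genes and an adjusted p under 0.05. Over all genes, 1.311% were called higher in CCK+ cells and 0.7077% in CCK- cells. The list was chosen with earlier results of these data known, so its excess over all genes is a description and not independent support. 0 members were called lower in either population, where 1.234% and 0.5263% of all genes were, and at an unadjusted p under 0.05 there were 2 lower members in CCK+ cells and 3 in CCK- cells, beside 1725 and 1304 of all 22042 genes. At that cut 37 and 32 members were higher, beside 2011 and 1331 genes. All 14 members called in CCK- cells were also called in CCK+ cells, and 11 were called in CCK+ cells alone, a difference that has its own test further on. In bulk libraries such as these, a higher value from more cells of a type and one from more RNA per cell cannot be told apart. 78 members had a mean of at least 10 normalized counts, all of the called ones among them, and of all 13517 genes above that mean 1.894% were called higher in CCK+ cells and 1.125% in CCK- cells.

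Counts without a test describe the same libraries and the same chosen list, so they are no separate support. All 3 refed libraries were above all 3 fasted libraries for 39 members in CCK+ cells and for 39 in CCK- cells, where 10.76% and 8.053% of all genes were. The reverse held for 4 and 7 members, beside 8.606% and 8.175% of all genes. 32 of the 92 members had all refed above all fasted libraries in both populations, where 2.95% of all genes did. The median log2 difference of the members, refed minus fasted, was 0.35 in CCK+ cells and 0.29 in CCK- cells, and that of all genes was 0.01 and 0. When all libraries were rescaled to the same sum, the median of all genes in CCK+ cells moved to 0.20, and the members' median stayed 0.37 above it. With that scaling, 77.4% of the 815 called genes were higher, against 289 of 561 with the authors' scaling.

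The calls rest on a spread per gene shared by all 12 libraries, which come from 6 mice and count as independent in that fit. With the 6 libraries of 1 population alone, limma called 0 genes in CCK+ cells (36 members were higher at an unadjusted p under 0.05, where 3190 genes passed in either direction) and 63 genes in CCK- cells, Hspe1 the 1 member among them. Without CCK+ refed replicate 2, the count of called members in CCK+ cells was 9, and without CCK+ fasted replicate 2 it was 14. In CCK- cells the count fell to 6 without fasted replicate 1, 9 without fasted replicate 2, 9 without fasted replicate 3, 5 without refed replicate 2 and 6 without refed replicate 3. The log2 difference of each called member was above 0 in all of these fits. For each comparison only the 6 libraries of its own population were left out in turn. 9 members stayed called in CCK+ cells whichever of the 6 CCK+ libraries was left out, namely Hspa8, Hsp90aa1, Stip1, St13, Cct8, Hspd1, Hspe1, Dnaja3 and Dnajc11. With the 6 CCK- libraries, 5 stayed called in CCK- cells, namely Hsp90aa1, Hsp90ab1, Hsph1, Hspd1 and Hspe1. Without the intensity trend in limma, Dnaja3 lost its CCK+ call (adjusted p = 0.0565) and Hspd1 its CCK- call (0.0539). The 10 members still called in CCK+ cells without the trend were Hspa8, Hsp90aa1, St13, Hsp90ab1, Stip1, Cct8, Hspd1, Hsph1, Dnajc11 and Hspe1, and the 5 in CCK- cells were Hspa8, Hsp90aa1, Hsp90ab1, Hsph1 and Hspe1, with adjusted p of 0.0514 to 0.165 and 0.0539 to 0.185 for those that lost the call. Quantile normalization ended the CCK- calls of Ahsa1, Cct8, Hspa4l, Hspa1b and Hspa1a (adjusted p of 0.0518 to 0.113). A pseudocount of 5 ended those of Hspa4l and Hspa1a in CCK- cells (0.0544 to 0.0574) and that of Cct3 in CCK+ cells (0.0548).

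**Figure D1:**
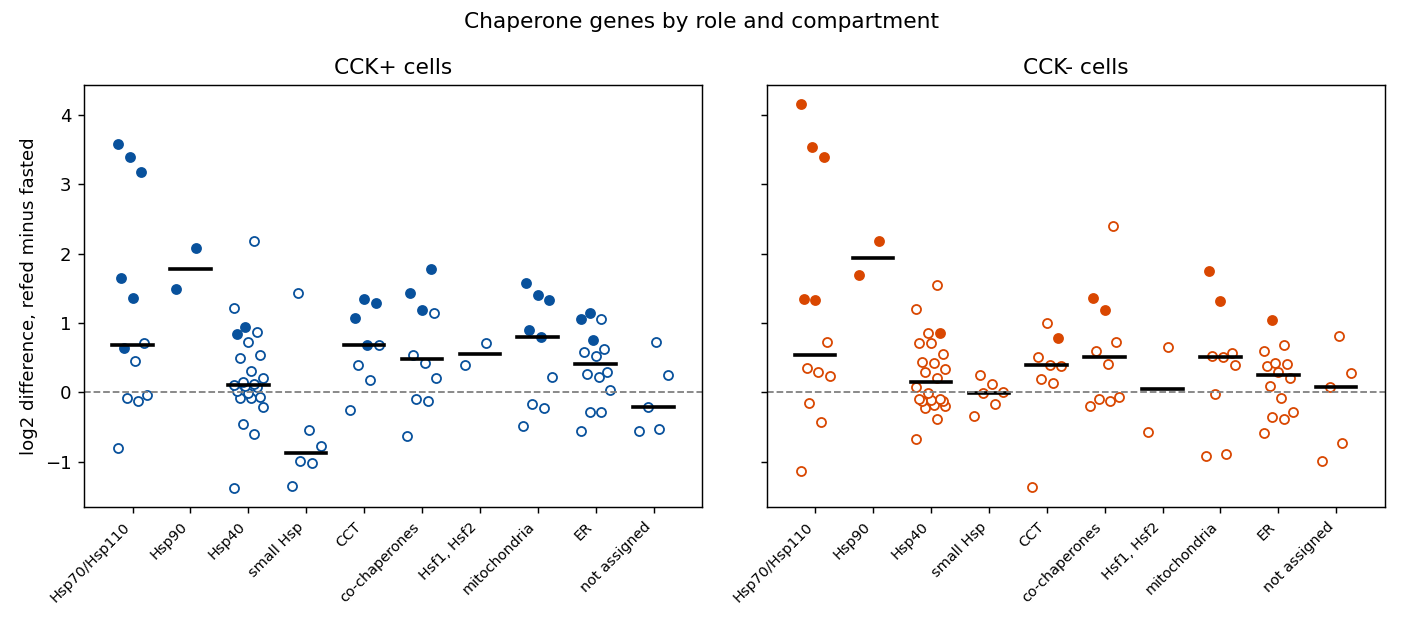
Log2 difference, refed minus fasted, of each chaperone gene by role and compartment, in CCK+ cells (left) and CCK- cells (right). Each circle is 1 gene, filled where it was called, the bar is the median of the role, and the dashed line is the median of all genes. The called genes lie among Hsp70 and Hsp110, Hsp90, J proteins, CCT, co-chaperones, mitochondrial and ER genes, and no called gene is below 0.

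The members that differed most were the inducible cytosolic genes of the Hsp70 and Hsp110 families. Hsph1, the Hsp110 that recharges Hsp70, had 214, 312 and 611 normalized counts in the fasted CCK+ libraries and 2365, 4741 and 4298 in the refed. In CCK- cells it had 68.7, 129 and 313 in the fasted and 2036, 2777 and 2851 in the refed libraries. The groups were far apart in both populations, with the lowest refed library at 3.87 times the highest fasted one in CCK+ cells and 6.51 times in CCK- cells. The log2 difference was 3.40 ± 0.46 (SE; limma adjusted p = 0.00343) in CCK+ cells and 4.16 ± 0.46 (SE; limma adjusted p = 4.09e-04) in CCK- cells, or 10.5-fold and 17.8-fold on that scale, higher in 3 of 3 refed libraries. Without CCK+ refed replicate 2 the adjusted p in CCK+ cells was 0.0600.

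Hspa1b, one of the Hsp70 genes that cells switch on under stress, had 11.96, 36.4 and 109 normalized counts in the fasted CCK+ libraries and 212, 541 and 782 in the refed. In CCK- cells it had 17.7, 49.8 and 100.4 fasted and 242, 615 and 1023 refed. Its near-identical neighbour Hspa1a had 29.6, 63.1 and 148 normalized counts in the fasted CCK+ libraries and 312, 619.7 and 1131 in the refed, and 26.6, 80.2 and 183 fasted and 323, 843 and 1755 refed in CCK- cells. The refed libraries did not overlap the fasted ones, but within each group the mice differed widely, and replicate 1 was the lowest and replicate 3 the highest in all 4 groups. The log2 difference of Hspa1b was 3.58 ± 0.77 (SE; limma adjusted p = 0.0246) in CCK+ cells and 3.54 ± 0.77 (SE; limma adjusted p = 0.0378) in CCK- cells, and that of Hspa1a 3.18 ± 0.74 (SE; limma adjusted p = 0.0350) and 3.39 ± 0.74 (SE; limma adjusted p = 0.0392). Reads of these copies cannot be told apart over much of their length, so how they divide between Hspa1a and Hspa1b is uncertain, and their sum differed by 3.35 ± 0.74 (SE; limma adjusted p = 0.0293) and 3.47 ± 0.74 (limma adjusted p = 0.0368). No call of either gene was safe from leaving out a library. Hspa1a lost it in each population without any 1 library of that population (adjusted p up to 0.221 in CCK+ and 0.214 in CCK- cells), Hspa1b lost it without any 1 of the CCK- libraries (up to 0.207), and in CCK+ cells Hspa1b kept it only without fasted replicate 3 (up to 0.184 otherwise).

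Hspa8, the constitutive Hsp70 that every cell uses, had 7100, 6605 and 10279.9 normalized counts in the fasted CCK+ libraries and 22872, 26500.1 and 24596 in the refed. The CCK- libraries had 7496, 9810 and 8910 fasted and 19015, 25219 and 21848 refed. The lowest refed library was 2.22 times the highest fasted one in CCK+ and 1.94 times in CCK- cells, and the log2 difference was 1.65 ± 0.20 (SE; limma adjusted p = 0.00266) and 1.33 ± 0.20 (SE; limma adjusted p = 0.00499). Without CCK- refed replicate 2 the adjusted p in CCK- cells was 0.0508. Hspa4l, another Hsp110 protein, differed by 1.36 ± 0.30 (SE; limma adjusted p = 0.0273) and 1.35 ± 0.30 (SE; limma adjusted p = 0.0421), higher in 3 of 3 refed libraries of each population. That call was lost in CCK+ cells without fasted replicate 1 or 2 or refed replicate 2 or 3 (adjusted p up to 0.184), and in CCK- cells without any 1 CCK- library (up to 0.228). Hspa4 was called in CCK+ cells at 0.64 ± 0.13 (SE; limma adjusted p = 0.0187), a call lost without refed replicate 2 (adjusted p = 0.0592), and in CCK- cells it differed by 0.35 ± 0.13 (SE; limma adjusted p = 0.253). Of the 12 listed genes of the 2 families, 6 were called in CCK+ cells and 5 in CCK- cells, with medians of 0.68 and 0.54.

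**Figure D2:**
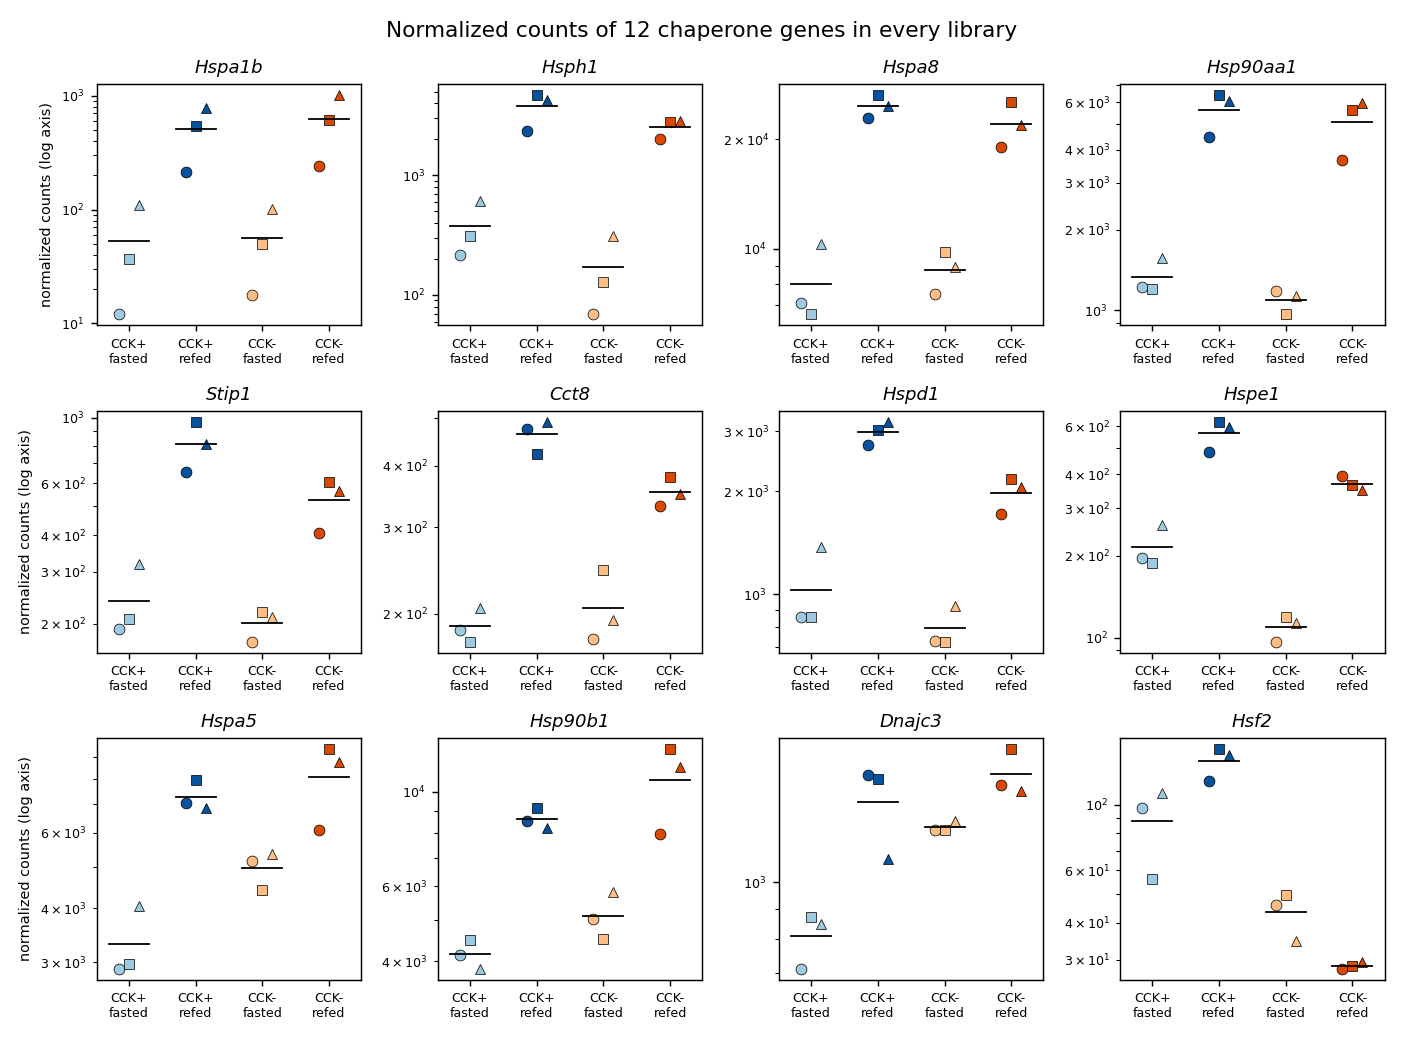
Normalized counts (log axis) of 12 chaperone genes in each library of the 4 groups. Circles, squares and triangles are replicates 1, 2 and 3, which are the same mouse in the CCK+ and the CCK- group of 1 state, and the bar is the group mean. For Hsph1 the refed libraries sit between 2365 and 4741 in CCK+ cells, all above the fasted ones, whereas the refed libraries of Hsf2 lie above the fasted ones in CCK+ cells and below them in CCK- cells.

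Both cytosolic Hsp90 genes were called in both populations. Hsp90aa1, the stress-inducible form, had 1227, 1201 and 1564 normalized counts in the fasted CCK+ libraries and 4438, 6419 and 6083 in the refed. In CCK- cells it had 1185, 966 and 1134 fasted and 3669.7, 5620.5 and 5959 refed. The fasted mice lay close together and the refed mice were all far above them, by 2.08 ± 0.20 (SE; limma adjusted p = 0.00151) in CCK+ and 2.19 ± 0.20 (SE; limma adjusted p = 1.33e-04) in CCK- cells. Hsp90ab1, the constitutive form, had 4856, 3952 and 6012 normalized counts in the fasted CCK+ libraries and 11585, 15494 and 14432 in the refed. The CCK- libraries had 1686, 2184 and 2333 fasted and 5032, 7449.7 and 7651 refed. Here too no fasted library reached a refed one, and the log2 difference was 1.50 ± 0.21 (SE; limma adjusted p = 0.00388) and 1.69 ± 0.21 (SE; limma adjusted p = 0.00136), with an adjusted p of 0.0504 in CCK+ cells without refed replicate 2.

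The co-chaperones that serve Hsp70 and Hsp90 went the same way in part. Stip1, the bridge between both chaperones, had 191, 208 and 319 normalized counts in the fasted CCK+ libraries and 655, 967 and 813 in the refed. The CCK- libraries had 174, 219 and 211 fasted and 405, 603 and 564 refed. The groups did not overlap, and the log2 difference was 1.78 ± 0.23 (SE; limma adjusted p = 0.00283) and 1.36 ± 0.23 (SE; limma adjusted p = 0.00890). The CCK- call was lost without fasted replicate 1 or refed replicate 2 or 3 (adjusted p up to 0.0877). Ahsa1, which speeds the ATP cycle of Hsp90, differed by 1.43 ± 0.24 (SE; limma adjusted p = 0.00689) and 1.18 ± 0.24 (SE; limma adjusted p = 0.0272), higher in 3 of 3 refed libraries of each. In CCK+ cells that call was lost without fasted replicate 2 or refed replicate 2 (up to 0.0683), and in CCK- cells it held only without refed replicate 1 (up to 0.157 otherwise). St13, an Hsp70 partner, had 406, 385 and 388 normalized counts in the fasted CCK+ libraries and 793, 903 and 997 in the refed, all refed libraries well above the fasted ones. It was called in CCK+ cells at 1.18 ± 0.17 (SE; limma adjusted p = 0.00375) and just missed the threshold in CCK- cells at 0.72 ± 0.17 (SE; limma adjusted p = 0.0504), where it passed with the mouse as a block (adjusted p = 0.0475). Bag3, which links Hsp70 to autophagy, had 431, 486 and 479 fasted and 639, 565 and 674 refed in CCK+ cells and 429, 619.5 and 404 fasted and 665, 734 and 774 refed in CCK- cells. Its groups did not overlap, yet the differences of 0.43 ± 0.17 (SE; limma adjusted p = 0.221) and 0.60 ± 0.17 (SE; limma adjusted p = 0.118) were not called. Of the 10 co-chaperones, 3 were called in CCK+ cells and 2 in CCK- cells.

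J proteins were the most numerous role and mostly did not pass the test. Of 24 cytosolic ones, 2 were called in CCK+ cells and 1 in CCK- cells, with medians of 0.11 and 0.15. Dnaja1, a main partner of Hspa8, had 2442, 2310.3 and 2809.7 normalized counts in the fasted CCK+ libraries and 4549.9, 5096 and 4826 in the refed, and 3186, 2810.4 and 3990.3 fasted and 4522, 7095 and 6618 refed in CCK- cells. The refed libraries were all higher, by 0.94 ± 0.19 (SE; limma adjusted p = 0.0183) and 0.86 ± 0.19 (SE; limma adjusted p = 0.0400). In CCK+ cells the call was lost without fasted replicate 2 or refed replicate 2 or 3 (adjusted p up to 0.107), and in CCK- cells it held only without refed replicate 1 (up to 0.200 otherwise). Dnajb1, the classical heat-inducible J protein, had 423, 550 and 732 normalized counts in the fasted CCK+ libraries and 603, 1111 and 1554 in the refed. The CCK- libraries had 409, 503 and 549 fasted and 567, 842 and 1057 refed. Its CCK+ groups overlapped, because fasted replicate 3 was above refed replicate 1, and the differences of 0.87 ± 0.31 (SE; limma adjusted p = 0.173) and 0.72 ± 0.31 (SE; limma adjusted p = 0.374) were not called. The other called one, Dnajc2, which sits on the ribosome, differed by 0.84 ± 0.17 (SE; limma adjusted p = 0.0194) in CCK+ cells. That call was lost without refed replicate 2 (adjusted p = 0.0667).

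None of the 6 small heat shock proteins was called in either population by limma, and none was at an unadjusted p under 0.05. 4 of them had a mean under 10 normalized counts. Hspb1, a small heat shock protein that binds actin and unfolded proteins, had 167, 65.9 and 99.97 normalized counts in the fasted CCK+ libraries and 168, 334 and 399 in the refed, and 0 to 6.398 in the CCK- libraries. In CCK+ cells refed replicate 1 was barely above fasted replicate 1, and the difference of 1.44 ± 0.81 (SE; limma adjusted p = 0.401) was not called.

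CCT, the cytosolic chamber that folds actin and tubulin, is built of different subunits. Cct8 had 185, 176 and 206 normalized counts in the fasted CCK+ libraries and 476, 423 and 491 in the refed, and 178, 245 and 194 fasted and 332, 379.6 and 351 refed in CCK- cells. The groups were apart in both populations, by 1.29 ± 0.17 (SE; limma adjusted p = 0.00283) and 0.79 ± 0.17 (SE; limma adjusted p = 0.0344), and the CCK- call held only without fasted replicate 2 (adjusted p up to 0.142 otherwise). Cct2 had 578, 682 and 603 normalized counts in the fasted CCK+ libraries and 772, 869 and 798 in the refed, without overlap but with a smaller difference of 0.39 ± 0.14 (SE; limma adjusted p = 0.181) that was not called, and 0.39 ± 0.14 (SE; limma adjusted p = 0.258) in CCK- cells. In CCK+ cells Cct3, Cct4 and Cct5 were called as well, at 1.35 ± 0.34, 1.07 ± 0.20 and 0.68 ± 0.17 (SE; limma adjusted p = 0.0485, 0.0139 and 0.0478). These are weak calls. Cct5 lost it without any 1 CCK+ library (adjusted p up to 0.158), Cct3 kept it only without fasted replicate 1 (up to 0.184) and lost it with the mouse as a block (adjusted p = 0.0545), and Cct4 lost it without fasted replicate 2 or refed replicate 2 or 3 (up to 0.0821). The median of the 8 listed CCT genes was 0.68 in CCK+ and 0.39 in CCK- cells. These 8 are not the whole chamber. The subunit Tcp1, whose symbol the rule does not take, is counted with the other cytosolic partners further on. Cct6b is in the list with a mean of only 1.86 normalized counts.

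In mitochondria the folding chamber and its Hsp70 were called. Hspd1 (Hsp60) had 856, 859.9 and 1377 normalized counts in the fasted CCK+ libraries and 2744, 3034 and 3199.8 in the refed, and 731, 726 and 924 fasted and 1712, 2171 and 2066 refed in CCK- cells. Hspe1 (Hsp10), the lid of the chamber, had 197, 189 and 259 normalized counts in the fasted CCK+ libraries and 481, 624 and 599 in the refed, and 96.7, 119 and 113 fasted and 393, 364 and 349.9 refed in CCK- cells. Both genes were well above every fasted library in every refed library. Hspd1 differed by 1.57 ± 0.19 (SE; limma adjusted p = 0.00265) and 1.32 ± 0.19 (SE; limma adjusted p = 0.00339), the CCK- call being lost without the trend (adjusted p = 0.0539), and Hspe1 by 1.40 ± 0.18 (SE; limma adjusted p = 0.00283) and 1.75 ± 0.18 (SE; limma adjusted p = 2.40e-04). Hspa9, the mitochondrial Hsp70 that pulls proteins in, had 522, 496 and 699.9 normalized counts in the fasted CCK+ libraries and 1057, 943 and 973 in the refed, and 902, 764 and 619 fasted and 920.4, 1025 and 1042 refed in CCK- cells. The groups did not overlap, barely so in CCK- cells. It was called in CCK+ cells at 0.81 ± 0.17 (SE; limma adjusted p = 0.0236), a call it kept only without fasted replicate 3 (adjusted p up to 0.105 otherwise), and differed by 0.40 ± 0.17 (SE; limma adjusted p = 0.359) in CCK- cells.

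2 mitochondrial J proteins, named after their values were seen, were also called in CCK+ cells. Both kept the call whichever of the 6 CCK+ libraries was left out, and Dnaja3 lost it without the trend (adjusted p = 0.0565). Dnajc11, which works at the outer and inner membrane contacts, had 168, 119.9 and 127 normalized counts in the fasted CCK+ libraries and 408, 348 and 288 in the refed, a difference of 1.33 ± 0.20 (SE; limma adjusted p = 0.00431), and differed by 0.51 ± 0.20 (SE; limma adjusted p = 0.290) in CCK- cells. Dnaja3 had 116, 118 and 103 normalized counts in the fasted CCK+ libraries and 208, 201 and 221 in the refed, a difference of 0.90 ± 0.18 (SE; limma adjusted p = 0.0167), and differed by 0.57 ± 0.18 (SE; limma adjusted p = 0.160) in CCK- cells. In both genes the refed CCK+ libraries were above all fasted ones. Of the 9 mitochondrial members, 5 were called in CCK+ cells and 2 in CCK- cells, with medians of 0.81 and 0.51. Dnajc30 had its refed libraries below the fasted ones, at 148, 231 and 143 fasted and 136, 135 and 97.9 refed in CCK+ cells and 209, 236 and 172 fasted and 127, 94.5 and 112 refed in CCK- cells, without overlap. Neither difference was called, -0.48 ± 0.24 (SE; limma adjusted p = 0.330) and -0.88 ± 0.24 (SE; limma adjusted p = 0.0972). Dnajc28 lay below without overlap in CCK- cells alone, at -0.92 ± 0.52 (SE; limma adjusted p = 0.534), also not called.

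Hspd1 and Hspe1 stand head to head, with starts 216 bases apart on opposite strands, and share the stretch between. It is shown because it holds the heat shock element, the repeat that Hsf1 binds, searched for as 3 blocks, GAA and TTC in turn, with 2 bases between blocks, on both strands. The sequence is from RefSeq (GRCm38.p6), runs 5' to 3' and ends 42 bases before the start of Hspe1, and the capitals mark 2 overlapping matches.
Hspe1, chr1:55088029-55088106, plus strand: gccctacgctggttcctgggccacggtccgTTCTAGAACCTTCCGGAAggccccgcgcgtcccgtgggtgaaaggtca
Promoter windows of 300 bases (250 before the start and 50 after it) were matched for 74 of the 91 member symbols. Of the 25 called members, 8 had no window and were not searched: Cct4, Hspa8, Hsp90aa1, St13, Hsp90ab1, Hspa9, Dnajc2 and Dnajc11. The element was in 6 of the 94 windows of members (6.38%) and in 0.603% of all 32851 windows. These 6 windows cover 3 places in the genome, since Hspd1 and Hspe1 share 1 stretch and Hsph1 and Dnajb6 have 2 overlapping windows each. Of the 17 called members with a window, 3 hold it, namely Hspd1, Hspe1 and Hsph1, and 14 do not, Hspa1a and Hspa1b among them. The other windows with it belong to Hsph1, where it lies after the start, and to Dnajb6, which was not called, at -0.22 ± 0.40 (SE; limma adjusted p = 0.836) and -0.10 ± 0.40 (SE; limma adjusted p = 1.00). A match is a description and not a shown site, and its lack says only that these letters are not in the window.

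In the ER, BiP, Grp94 and the J protein Dnajc3 were called. Hspa5 (BiP), the Hsp70 of the ER, had 2898, 2979.8 and 4057 normalized counts in the fasted CCK+ libraries and 7016, 7954 and 6854 in the refed, and 5158, 4408 and 5343 fasted and 6092, 9381 and 8746 refed in CCK- cells. The refed libraries were above all fasted ones in both populations, by a wider gap in CCK+ cells. It was called in CCK+ cells at 1.15 ± 0.19 (SE; limma adjusted p = 0.00739), a call lost without fasted replicate 2 (adjusted p = 0.0507) or refed replicate 2 (0.0683), and differed by 0.68 ± 0.19 (SE; limma adjusted p = 0.117) in CCK- cells. Hsp90b1 (Grp94), the Hsp90 of the ER, had 4146, 4474 and 3838 normalized counts in the fasted CCK+ libraries and 8557, 9174 and 8208 in the refed, and 5022, 4521 and 5803 fasted and 7951, 12601 and 11434 refed in CCK- cells. Every refed library was above every fasted one, and it was called in both, at 1.06 ± 0.18 (SE; limma adjusted p = 0.00856) and 1.04 ± 0.18 (SE; limma adjusted p = 0.0137). The call was lost in CCK+ cells without refed replicate 2 (adjusted p = 0.0683) and in CCK- cells without fasted replicate 1 or 2 or refed replicate 2 or 3 (up to 0.0951).

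Dnajc3, a J protein of BiP that also restrains the kinase PERK, had 712, 873 and 849.5 normalized counts in the fasted CCK+ libraries and 1527, 1502 and 1095 in the refed, and 1230, 1229 and 1273 fasted and 1466, 1691 and 1434 refed in CCK- cells. No fasted library reached a refed one, and it was called in CCK+ cells at 0.75 ± 0.16 (SE; limma adjusted p = 0.0215), a call that held only without fasted replicate 1 or refed replicate 3 (adjusted p up to 0.103 otherwise), and differed by 0.29 ± 0.16 (SE; limma adjusted p = 0.5003) in CCK- cells. Dnajb11, which brings BiP its clients, had 1014, 948 and 836 normalized counts in the fasted CCK+ libraries and 1597, 1622 and 1149 in the refed. These groups did not overlap, and the CCK+ difference of 0.63 ± 0.17 (SE; limma adjusted p = 0.0624) missed the threshold. It passed when libraries were rescaled to the same sum and without refed replicate 3 (adjusted p = 0.0212 and 0.0390). In CCK- cells Dnajb11 had 1083, 1264 and 1016 fasted and 1317, 1571 and 1572 refed, without overlap. The difference there was 0.41 ± 0.17 (SE; limma adjusted p = 0.324) and was not called. Dnajb9, a J protein that marks the unfolded protein response, had 386, 439.8 and 442 normalized counts in the fasted CCK+ libraries and 442, 553 and 481 in the refed, and 796, 652 and 668 fasted and 735, 954 and 755 refed in CCK- cells. The refed libraries were close to the fasted ones, at 0.22 ± 0.16 (SE; limma adjusted p = 0.530) and 0.20 ± 0.16 (SE; limma adjusted p = 0.706). Dnajb12, a J protein of the ER membrane, had 251, 407 and 235 fasted and 229.6, 184 and 179 refed in CCK+ cells and 345, 513 and 344 fasted and 261, 273 and 254 refed in CCK- cells. All its refed libraries were below all fasted ones, and the differences of -0.55 ± 0.22 (SE; limma adjusted p = 0.227) and -0.58 ± 0.22 (SE; limma adjusted p = 0.289) were not called. Dnajc25 lay below without overlap in CCK+ cells alone, at -0.28 ± 0.20 (SE; limma adjusted p = 0.534), also not called. Of the 14 ER members, 3 were called in CCK+ cells and 1 in CCK- cells, with medians of 0.41 and 0.25. Those of the 62 cytosolic members were 0.35 and 0.29, with 17 and 11 called.

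The 3 ER genes called in CCK+ cells are the members whose promoter window holds the ER stress element, which factors of the unfolded protein response read, searched for on both strands as CCAAT and CCACG with 9 bases between. It was in the windows of 3 of the 12 ER members that have one and of 0 of the 52 cytosolic ones, in 3.19% of the member windows and in 0.119% of all windows. The match of calls and element hangs on the threshold. Dnajc3 kept its CCK+ call in 2 of 6 fits without 1 library, and Dnajb11, where the element was not found, passed with libraries rescaled (limma adjusted p = 0.0212). Genes outside the list were not looked at singly for the element. The stretches below are from RefSeq (GRCm38.p6), run 5' to 3' towards the gene and end before its start, and the capitals mark the matches, 2 of them in Hsp90b1, the nearer one on the opposite strand.
Hspa5, chr2:34771995-34772073, plus strand: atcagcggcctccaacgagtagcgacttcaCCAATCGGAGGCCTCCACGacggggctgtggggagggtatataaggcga
Hsp90b1, chr10:86705503-86705686, minus strand: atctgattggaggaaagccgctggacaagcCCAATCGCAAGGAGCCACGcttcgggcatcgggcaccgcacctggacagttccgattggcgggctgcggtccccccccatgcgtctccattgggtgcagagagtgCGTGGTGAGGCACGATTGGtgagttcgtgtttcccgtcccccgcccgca
Dnajc3, chr14:118937797-118937875, plus strand: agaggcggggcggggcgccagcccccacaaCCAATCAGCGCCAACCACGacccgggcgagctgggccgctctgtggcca
The first bases of the matches lie 65 bases before the start of Hspa5, and 212 and 107 before that of Hsp90b1. Hsf1 or ER factor binding was not measured here.

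The transcription factors themselves were not called. Hsf1, the main driver of the heat shock response, had 237, 190.3 and 272 normalized counts in the fasted CCK+ libraries and 291, 307 and 315 in the refed, and 155, 107 and 115 fasted and 199, 202 and 189 refed in CCK- cells. The refed libraries were above the fasted ones in both populations, at 0.40 ± 0.19 (SE; limma adjusted p = 0.308) and 0.66 ± 0.19 (SE; limma adjusted p = 0.130), and were not called. Hsf2, its relative in development and proteasome stress, had 97.5, 56.2 and 109.7 normalized counts in the fasted CCK+ libraries and 120.3, 154 and 147 in the refed. In CCK- cells it had 45.8, 49.8 and 34.8 fasted and 28.0, 28.6 and 29.4 refed. Its refed libraries were above all fasted ones in CCK+ cells and below all of them in CCK- cells, at 0.72 ± 0.29 (SE; limma adjusted p = 0.226) and -0.57 ± 0.29 (SE; limma adjusted p = 0.479), neither called.

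Whether refeeding acted differently on the 2 populations was asked by the difference of the differences, CCK+ minus CCK-, in the same fit. 0 of the 92 members were called by limma, where 0.004537% of all genes were, the 1 gene being Gvin1, a large GTPase gene named after its value was seen (-6.55 ± 0.54; limma adjusted p = 1.61e-04). At an unadjusted p under 0.05 there were 4 members, Hsf2, Dnajc11, Cct4 and Dnajb14, with adjusted p from 0.677 to 0.771, where 1378 of all 22042 genes passed. Each mouse gave both libraries, so the difference was also fitted within mice, with mouse means as a block. That fit called 0 members too, and at an unadjusted p under 0.05 it held 7, namely Hsph1, Dnajc10, Dnajb14, Hsf2, Dnajc11, Dnajc3 and Cct4, beside 1714 genes. A p that misses the threshold does not show that the populations responded alike. For Hsph1 the estimate was -0.76, with a 95% interval of -2.17 to 0.65 without the mouse in the fit and -1.27 to -0.24 within mice (unadjusted p = 0.00851, limma adjusted p = 0.581). For Hspa1b, at 0.03, the intervals were -2.29 to 2.35 and -0.60 to 0.67, for Hsp90aa1, at -0.11, -0.73 to 0.51 and -0.52 to 0.29, and for Hspa5, at 0.47, -0.11 to 1.05 and -0.00329 to 0.94. For Hsf2, at 1.29, they were 0.40 to 2.17 and 0.29 to 2.28 (limma adjusted p = 0.677 and 0.581), and for Dnajc11, at 0.82, 0.23 to 1.42 and 0.14 to 1.50 (limma adjusted p = 0.706 and 0.604). The difference in CCK+ cells was the larger one for 58 of the 92 members and for 9 of the 14 called in both, where it was for 50.6% of all genes.

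**Figure D3:**
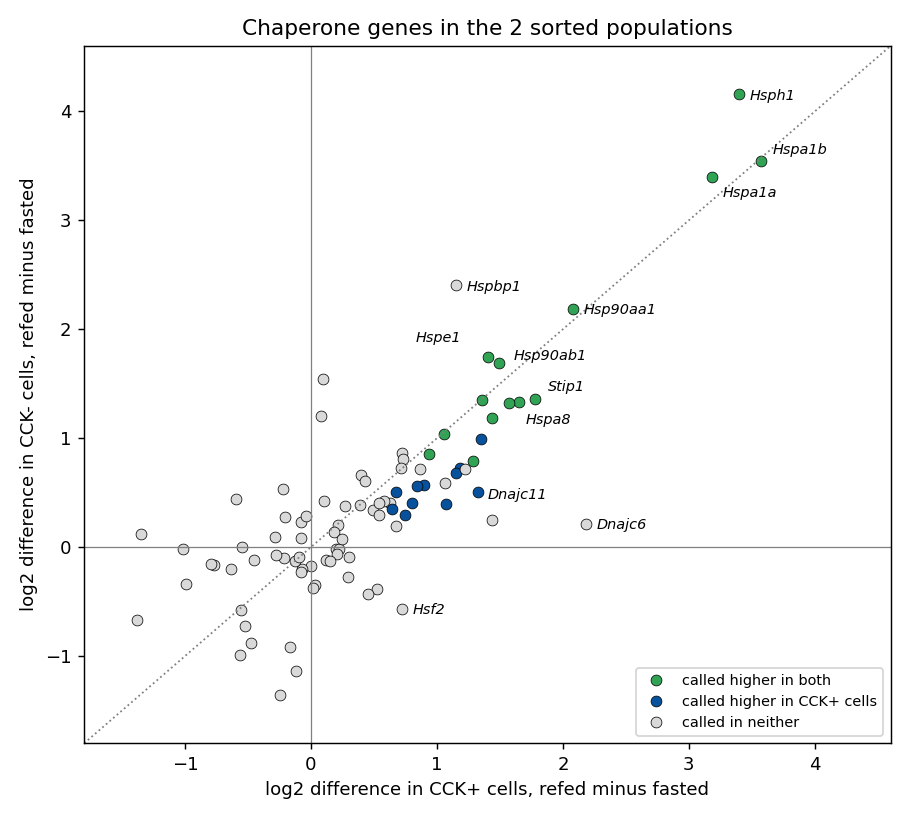
Log2 difference, refed minus fasted, of the 92 chaperone genes in CCK+ cells (horizontal) and CCK- cells (vertical), with equal differences on the dotted line. Of the 14 genes called in both, 9 lie on the CCK+ side of that line, such as Cct8 at 1.29 and 0.79, and 5 on the other, such as Hsph1 at 3.40 and 4.16.

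The order of the mice was counted as well. Among the 14 genes called in both, refed replicate 1 was the lowest refed library for 12 genes in CCK+ cells and for 13 in CCK- cells, where it was for 34.2% and 34.9% of all genes with a mean of at least 10. Fasted replicate 3 was the highest fasted library for 13 genes in CCK+ cells and for 8 in CCK- cells, beside 28.7% and 33.8% of those genes, and in CCK- cells replicate 2 was the highest for 5 and replicate 1 for 1. These are 2 sorts of the same mice, so the mouse and not the library is the unit, with 3 mice a state.

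Levels over both states differed between the populations for many members. CCK+ against CCK-, 23 of the 92 members were called higher and 12 lower, where 19.62% and 14.1% of all genes were, shares close to those of the members. Hspb1 was higher in CCK+ cells by 5.65 ± 0.57 on the log2 scale (± SE), Hsp90ab1 by 1.15 ± 0.15 and Hspa4l by 1.75 ± 0.21 (limma adjusted p from 3.50e-06 to 3.57e-05). The J protein Dnaja4, named after its values were seen, had 234, 148 and 234 fasted and 444, 524 and 447 refed in CCK+ cells and 10.96, 3.36 and 6.18 fasted and 4.10, 10.3 and 28.1 refed in CCK- cells, a level difference of 5.06 ± 0.37 (limma adjusted p = 1.46e-07). Every CCK+ library was above every CCK- library for Dnaja4. The ER gene Dnajb9 was lower in CCK+ cells, at -0.73 ± 0.11 (limma adjusted p = 1.41e-04).

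Partners of the members that the symbol rule leaves out behaved as follows. Of 21 other cytosolic partners, 6 were called higher and 1 lower in CCK+ cells, and 1 higher and 1 lower in CCK- cells (medians 0.38 and 0.09). Cacybp, an Hsp90-associated protein of protein turnover, had 53.8, 108 and 82.2 normalized counts in the fasted CCK+ libraries and 234, 284 and 410.4 in the refed, and 83.7, 44.1 and 49.2 fasted and 272, 237 and 182 refed in CCK- cells. The refed libraries were all far above, by 1.93 ± 0.31 (SE; limma adjusted p = 0.00664) and 1.99 ± 0.31 (SE; limma adjusted p = 0.00692). Ppid, an Hsp90-bound prolyl isomerase, was called in CCK+ cells at 1.56 ± 0.37 (SE; limma adjusted p = 0.0375). Fkbp5, an Hsp90 partner that glucocorticoid hormones switch on, had 591, 857 and 828 normalized counts in the fasted CCK+ libraries and 249.7, 306 and 215 in the refed, and 746, 1104 and 959 fasted and 124, 170.2 and 166 refed in CCK- cells. It was the one gene of this list that was called lower after refeeding in both populations, without overlap, at -1.55 ± 0.21 (SE; limma adjusted p = 0.00343) and -2.60 ± 0.21 (SE; limma adjusted p = 6.24e-05), and it kept each call whichever of the 6 libraries of that population was left out. Cacybp lost its CCK+ call without refed replicate 2 or 3 (adjusted p up to 0.0655) and its CCK- call without fasted replicate 2 or refed replicate 1 or 2 (up to 0.0662), and Ppid kept its call only without CCK+ fasted replicate 3 (up to 0.211 otherwise).

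Of 24 other ER folding genes, 7 were called higher in CCK+ cells and 1 in CCK- cells, and none lower (medians 0.34 and 0.32). At an unadjusted p under 0.05, 0 of them were lower in either population by limma. Pdia6 and Pdia4, which make and shuffle disulfide bonds, were called in CCK+ cells at 1.46 ± 0.24 (SE; limma adjusted p = 0.00689) and 1.36 ± 0.17 (SE; limma adjusted p = 0.00283), and the chaperone helper Creld2 in CCK- cells at 1.05 ± 0.20 (SE; limma adjusted p = 0.0194). Pdia4 kept its call whichever of the 6 CCK+ libraries was left out, Pdia6 lost it without CCK+ refed replicate 2 or 3 (adjusted p up to 0.0727), and Creld2 kept it only without CCK- refed replicate 1 (up to 0.109 otherwise). Of 13 other mitochondrial chaperones and proteases 0 were called in either population, with 3 higher at an unadjusted p under 0.05 in CCK+ cells and 0 in CCK- cells. Of 35 ubiquitin and proteasome genes, 2 were called higher in CCK+ cells, Psmb7 at 0.80 ± 0.19 (SE; limma adjusted p = 0.0352) and Psmd12 at 0.76 ± 0.15 (SE; limma adjusted p = 0.0174), and 1 lower in CCK- cells, the ubiquitin gene Ubb at -0.91 ± 0.17 (SE; limma adjusted p = 0.0182). At an unadjusted p under 0.05, 14 of the 35 were higher and 0 lower in CCK+ cells, and 2 higher and 2 lower in CCK- cells. All refed libraries were above all fasted ones for 14 and 4 of them, beside 10.76% and 8.053% of all genes. The reverse held for 2 and 1 of them, beside 8.606% and 8.175% of all genes. Psmb7 lost its call without any 1 CCK+ library (adjusted p up to 0.122), Psmd12 without CCK+ fasted replicate 2 or refed replicate 2 (up to 0.0633), and Ubb kept it only without CCK- fasted replicate 3 (up to 0.0911 otherwise). Immediate early genes, which cells switch on within minutes of a stimulus or of handling, were not called, 0 of 19 in either population, and at an unadjusted p under 0.05 there were 1 higher and 1 lower in CCK+ cells and 1 higher and 2 lower in CCK- cells. Their summed level was 48694, 45832 and 56658 in the fasted and 39619.8, 58714 and 57242 in the refed CCK+ libraries, which overlap, and 42363, 44669 and 51106 fasted and 34166, 41514 and 42925 refed in CCK- cells, which overlap as well.

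Markers of cell types were read in the same libraries. 20 enteroendocrine markers summed to 251196, 113445 and 189513 normalized counts in the fasted and 281597, 352865 and 295805 in the refed CCK+ libraries, with all refed above all fasted and fasted replicate 2 lowest. Of the 20, 0 were called by limma in CCK+ cells, 7 were higher at an unadjusted p under 0.05 and 6 had all refed libraries above all fasted ones. Their most abundant gene, Chgb, had 123321, 54338 and 89128 fasted and 152468, 211125 and 188044 refed. 12 enterocyte markers summed to 357643, 592783 and 442445 fasted and 389381, 276745 and 258591 refed in CCK+ cells, which overlap through refed replicate 1, and 2 of them were called lower, Slc5a1 at -1.02 ± 0.24 (SE; limma adjusted p = 0.0391) and Lct at -0.96 ± 0.24 (SE; limma adjusted p = 0.0460). Slc5a1 kept its call only without CCK+ fasted replicate 1 or refed replicate 1 (adjusted p up to 0.167 otherwise) and Lct only without refed replicate 1 (up to 0.190). At an unadjusted p under 0.05, 5 of the 12 enterocyte markers were lower and 0 higher in CCK+ cells by limma. All refed libraries were below all fasted ones for 4 of them and above for 0, and their median log2 difference was -0.48. The most abundant enterocyte gene, Anpep, had 72497, 101398 and 96342 fasted and 65506, 55489 and 38819.5 refed, and no marker of either list was at 0 in CCK+ cells. Their part in the CCK+ chaperone differences was not tested. In CCK- cells the enterocyte markers summed to 713588, 917680 and 689881 fasted and 740714, 712609 and 688038 refed, which overlap, with 0 of 12 called by limma and 1 higher and 0 lower at an unadjusted p under 0.05.

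10 crypt and cycling markers summed to 1672, 1822 and 3237 in the fasted and 3233, 4269 and 4262 in the refed CCK+ libraries, and to 1103, 1165 and 1532 fasted and 2419, 2813 and 2269.9 refed in CCK- cells. The groups overlap in CCK+ cells, where fasted replicate 3 is just above refed replicate 1, and do not overlap in CCK- cells. Mki67, their most abundant gene, was called higher in both, at 0.96 ± 0.22 (SE; limma adjusted p = 0.0344) and 1.07 ± 0.22 (SE; limma adjusted p = 0.0321), and Top2a in CCK- cells at 1.40 ± 0.29 (SE; limma adjusted p = 0.0340). At an unadjusted p under 0.05, 8 of the 10 were higher in CCK+ cells and 6 in CCK- cells, with 0 lower, and 7 in each had all refed above all fasted libraries. Their median log2 differences were 0.94 and 0.99, beside 0.35 and 0.29 for the chaperone members. Mki67 kept its call only without fasted replicate 3 in each population (adjusted p up to 0.180 in CCK+ and 0.171 in CCK- cells otherwise), and so did Top2a in CCK- cells (up to 0.183). None of the 10 was at 0 in any library, and their part in the chaperone differences was not tested. 8 Paneth markers summed to 15820.2, 1680.3 and 1947 fasted and 7167, 25527 and 7037 refed in CCK+ cells and 3173, 2885 and 4101 fasted and 4098, 14833 and 6689.9 refed in CCK- cells, with 0 called by limma (6 and 1 were higher at an unadjusted p under 0.05). The sums overlap in CCK+ cells through fasted replicate 1, and in CCK- cells only in that fasted replicate 3 is just above refed replicate 1. All 8 had a log2 difference above 0 in both populations, with medians of 1.38 and 1.26, and 0 and 4 of them had all refed above all fasted libraries. Their part in the chaperone differences was not tested. Of 8 goblet markers Agr2 was called higher in CCK- cells at 1.00 ± 0.20 (SE; limma adjusted p = 0.0297), a call lost without any 1 CCK- library (adjusted p up to 0.157), and of 8 tuft and 12 immune markers 0 were called in either population, with 0 immune markers at an unadjusted p under 0.05.

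**Figure D4:**
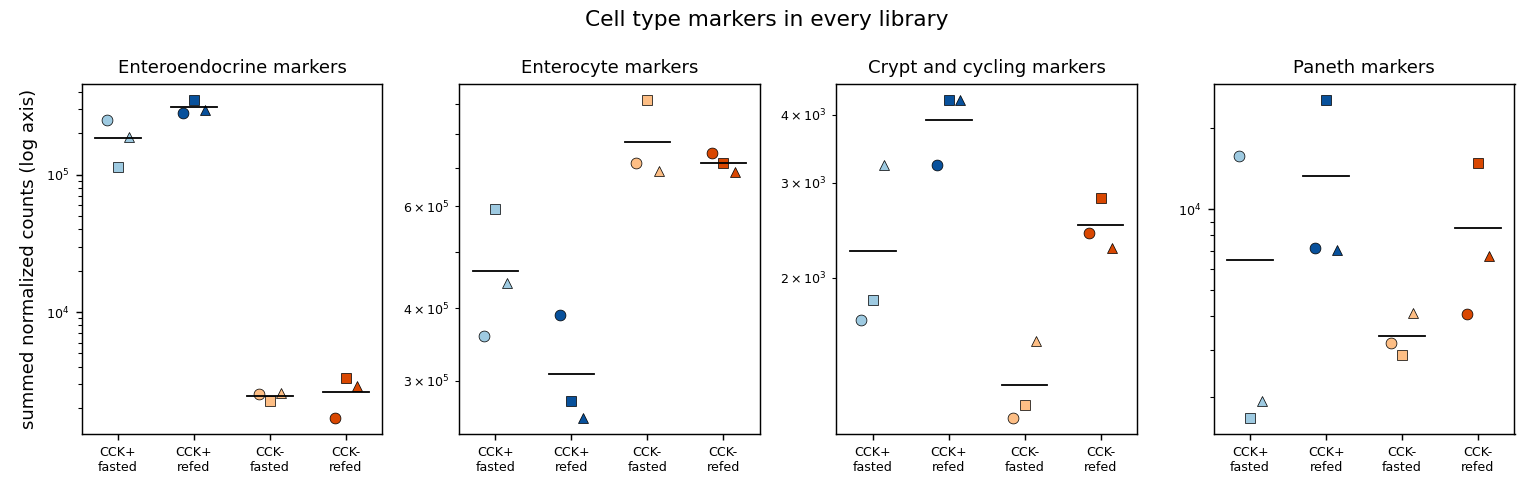
Summed normalized counts (log axis) of 4 marker lists in each library. Circles, squares and triangles are replicates 1, 2 and 3, and the bar is the group mean. Crypt and cycling markers lie higher after refeeding in CCK- cells, at 2419, 2813 and 2269.9 against 1103, 1165 and 1532, whereas enterocyte markers overlap there.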

How the data were processed

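According to the authors and the submitters' processing notes, reads of the 12 bulk libraries were trimmed with Trim Galore 0.6.7 and assigned to GRCm39 transcripts with Salmon 1.6.0, summed per gene, and divided by DESeq2 normalization factors. The deposited signal values are therefore normalized estimated counts. They are not whole reads. The commonest value above 0 of a library was taken as 1 estimated read, 0.687 to 1.49, but of values up to 20 reads 46.8 to 62.7% were whole multiples of it within 0.01, so no count test was run. Gene overlap and near-identical copies limit single values as stated beside them.

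Values were analysed as log2(value + 1) with limma 3.58.1 in R 4.3.3, with 1 mean per group over all 12 libraries, 8 residual degrees of freedom, an intensity trend and Benjamini-Hochberg adjustment over all 22042 genes, and called at an adjusted p under 0.05. Log2 differences are on the log2(value + 1) scale, which understates changes of low genes. The 3 libraries of a group are 3 mice, named by the letter in the library names, and the 2 comparisons of refed with fasted share mice but no libraries. Libraries of 1 mouse deviated together (correlation across genes of their deviations from the group means 0.0773 to 0.124 in 6 pairs, against -0.0826 to -0.0184 in 12 pairs of different mice), so the mouse was also fitted as a replicate block.

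Members, role lists and other lists were chosen with earlier results of these data known. Genes were named by a rule: 25 set by role, the 10 called members with the largest difference in each comparison and direction at a mean of at least 10, and 2 called genes from each other list. Other genes (Cct3, Cct4, Cct5, Dnaja3, Dnaja4, Dnajb6, Dnajb12, Dnajb14, Dnajc2, Dnajc10, Dnajc11, Dnajc25, Dnajc28, Dnajc30, Hspa4 and Gvin1) were chosen after their values were seen. The titles of all 4 bulk groups in the public record name CCK+ cells, and the cell type labels were used. Alternatives were pseudocounts of 5 and 0.5, a filter, other scalings, no trend, 1 population alone, the mouse block and leaving out each library. Droplet data of the series (1 untreated library) were not used here. Promoters came from RefSeq (GRCm38.p6), matched by symbol. Their build is not that of the counts.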

Additional observations from a re-analysis of the deposited data

Results flagged for a closer look

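Hsf2 had opposite directions in the sorted populations. Every refed CCK+ library was above every fasted one (120.3, 154 and 147 against 97.5, 56.2 and 109.7 normalized counts), and every refed CCK- library was below every fasted one (28.0, 28.6 and 29.4 against 45.8, 49.8 and 34.8). The difference of the log2 differences was 1.29 (95% interval 0.40 to 2.17, and 0.29 to 2.28 within mice), with an unadjusted p of 0.00745 and a limma adjusted p of 0.677 over all genes, so the test of the difference did not pass. Hsf2 was picked out of 92 genes by this pattern. Groups of 3 libraries are too small for a search for single libraries that stand apart.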

How the results depend on the processing

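No member was called lower, and none was called for the difference between populations, under any alternative. In CCK+ cells the fit called 561 genes, 289 of them higher, and in CCK- cells 272, 156 of them higher. Without the trend the calls were 119 genes (78 higher) and 10 members in CCK+ cells and 66 genes (39 higher) and 5 members in CCK- cells, and 2 genes for the difference. With 1 population alone they were 0 genes (0 higher) and 0 members in CCK+ cells, with 3190 genes at an unadjusted p under 0.05, and 63 genes (30 higher) and 1 member in CCK- cells. That fit has fewer libraries to estimate the spread. With quantile normalization 850 genes were called in CCK+ cells, 165 (93 higher) and 9 members in CCK- cells, and 2 for the difference. With libraries rescaled to the same sum 631 genes were called higher in CCK+ cells and the members' median there was 0.57, against 0.29 with a pseudocount of 5, 0.51 with the filter and 0.35 as reported. The cause of these moves was not tested.

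Leaving out 1 library of the comparison at a time gave 103 to 876 genes (74 to 436 higher) and 9 to 21 members in CCK+ cells with a members' median of 0.28 to 0.50, 79 to 144 genes (45 to 87 higher) and 5 to 10 members in CCK- cells with a median of 0.28 to 0.38, and 1 to 6 genes for the difference. All 25 and 14 called members kept their direction in each of these fits. With the mouse as a replicate block by duplicateCorrelation (consensus correlation 0.0962) 576 and 283 genes and 24 and 15 members were called, and Cct3 and St13, given above, were the members whose call it changed. That correlation is 1 value for all genes and is too low for some members. The SE of the difference between populations was 1.08 without the mouse and 0.28 within mice for Hspa1b. It was 1.04 and 0.26 for Hspa1a and 0.66 and 0.23 for Hsph1, but 0.253 and 0.251 for Hspe1. For genes such as Hspa1b the libraries of 1 mouse are therefore not independent, and the 8 residual degrees of freedom overstate what 6 mice give. With fixed mouse means 1 gene and 0 members were called for the difference, with 7 members and 1714 genes at an unadjusted p under 0.05. With 3 mice a state the SE of a member's log2 difference ranged from 0.13 to 1.23 in CCK+ cells, so small differences of the noisier genes would not have been called.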
